A study of Homo sapiens with 18 samples.

Results

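The basal and stress keratins were followed across the MCF10 cell lines as 7 genes, KRT5, KRT14, KRT15, KRT17, KRT6A, KRT6B and KRT16. They were taken by gene symbol and are 7 of the 35933 genes with values in all 18 libraries. The rule used no measured value, but earlier results of these data were known when the members were chosen. RNA sequencing had been done on 3 lines, each with an arm given a control CRISPR construct (genotype label Control Negative CRISPR, although the sample titles carry WT) and an arm given a construct against exon 1 of METTL3 (label METTL3 CRISPR knockdown), in 3 replicates named a, b and c. MCF10A cells are breast epithelial cells that became immortal in culture without an added oncogene and do not form tumours. MCF10AT1 is MCF10A carrying a mutated HRas, and MCF10CA1h came from MCF10AT1 through serial xenografts in mice. All 6 groups had received Cas9 and a guide with an mCherry marker in 2 rounds of transient transfection, had been sorted and had been grown from single cells, in medium with horse serum, insulin, hydrocortisone, cholera toxin and EGF. Each group is therefore 1 clonal line. Its replicates do not carry the spread between clones, and an effect of METTL3 cannot be told apart from a difference between 2 clones. Where nothing says that the replicates came from separate cultures, the p-values measure the spread between these libraries, which may be technical.

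Keratins are the proteins of intermediate filaments in epithelial cells, and each filament pairs a type II chain with a type I chain. KRT5 (type II) and KRT14 (type I) form the filament pair of the basal layer in stratified and glandular epithelia, and KRT15 is a type I chain of basal cells. KRT6A and KRT6B (type II) and KRT16 and KRT17 (type I) are induced in wounded or stressed epidermis, and KRT17 is also found in basal and myoepithelial cells of the breast. METTL3 is the catalytic subunit of the complex that writes N6-methyladenosine on mRNA, and the study asked whether lowering it acts differently at different stages of breast cancer progression.

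The genes lie in 2 keratin clusters of hg38. The type II genes are close together on chromosome 12, KRT6B at chr12:52446651-52452146, KRT6A at chr12:52487176-52493257 and KRT5 at chr12:52514575-52520530. The type I genes are on chromosome 17, KRT15 at chr17:41513745-41522529, KRT14 at chr17:41582279-41586895, KRT16 at chr17:41609778-41615899 and KRT17 at chr17:41619442-41624842. All 7 are protein-coding genes on the minus strand.

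Values are DESeq2-normalized counts as listed by the authors, scaled for library size but not for gene length. Differences are log2 of the normalized count plus 1 with their standard errors, and adjusted p-values are from limma, fitted over all genes with a mean of at least 10 in the libraries of the fit, with Benjamini-Hochberg adjustment and a threshold of 0.05. All 7 members passed that filter in every fit. In bulk RNA, fewer cells that express a gene and less RNA per cell cannot be told apart. The summed normalized count was between 21347352 and 31681834 per library, and whole reads could not be recovered, so depth per gene is unknown. METTL3 itself was 632 ± 154 (SD, n = 3) in controls of MCF10A and 809.9 ± 261 in the libraries labelled knockdown. MCF10AT1 had 929.9 ± 111 and 823 ± 75.2, while MCF10CA1h had 1135 ± 132 and 804 ± 52.3. By the exact permutation test (two-sided, n = 3 against 3, smallest possible p 0.1) the p was 0.3, 0.3 and 0.1. METTL3 RNA was thus lower by limma in MCF10CA1h alone (log2 difference -0.49 ± 0.12, adjusted p = 0.0234, but 0.0906 without control c and 0.0854 without labelled knockdown b), and the arm is named here by its label. These RNA values do not measure protein. By Western blot the paper reported less METTL3 protein in knockdown clones of each line, substantially so in MCF10AT1 and only moderately in MCF10CA1h. Its RT-PCR showed a smaller effect on METTL3 mRNA.

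Against controls, the libraries labelled knockdown showed a fall of all 7 keratins in MCF10AT1. They showed a rise of 5 in MCF10CA1h and of 1 in MCF10A. Each arm is 1 clone, so an effect of METTL3 is not told apart here from a difference between clones. In MCF10AT1 all 7 were lower in the libraries labelled knockdown, by between 5.14-fold and 279.7-fold, where 5.96% of all genes tested were lower. In MCF10CA1h KRT5, KRT14, KRT17, KRT6A and KRT6B were higher, by between 1.28-fold and 4.45-fold, where 7.91% of all genes tested were higher. In MCF10A KRT5 alone passed the test as higher, 1.87-fold, where 1.16% of all genes tested were higher. None was called lower in MCF10A or MCF10CA1h, where 1.49% and 4.85% of all genes were, although 2 members in MCF10A (KRT14 and KRT6A) and 1 in MCF10CA1h (KRT16) were lower at an unadjusted limma p under 0.05. With the replicate letter as a block, KRT14 and KRT6A were called lower in MCF10A, and KRT15 was called higher beside KRT5. None was called higher in MCF10AT1, where 7.07% of all genes were, and none was higher there at an unadjusted limma p under 0.05. In either direction, 2839 of 15416 genes tested passed that unadjusted threshold in MCF10A. In MCF10AT1 4425 of 16050 did, and in MCF10CA1h 4230 of 15127. The 7 had a median log2 difference of 0.04 for MCF10A, -4.47 for MCF10AT1 and 0.64 for MCF10CA1h, beside 0.00, 0.02 and -0.02 over all genes tested.

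**Figure D1:**
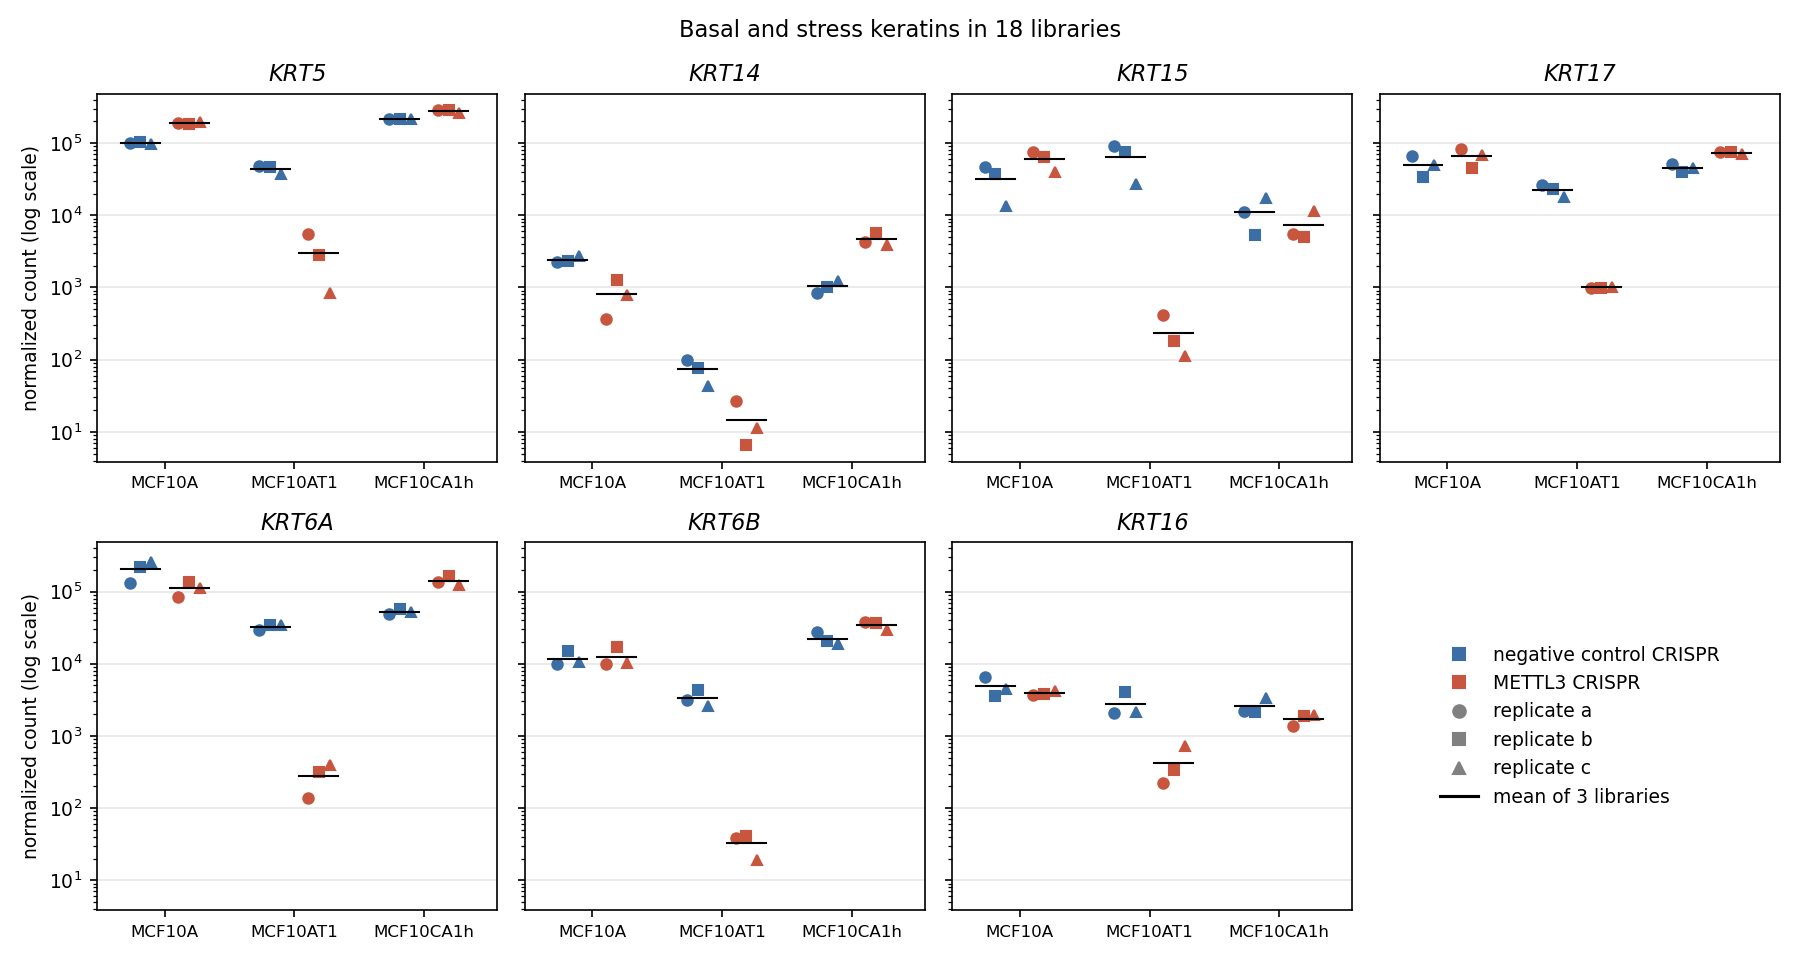
Normalized count (log axis) of each of the 7 keratins in every library, by cell line and arm, with the replicate letter as the symbol and the mean of 3 libraries as a line. In MCF10AT1 every library labelled knockdown lies below every control for all 7 genes, while in MCF10CA1h the libraries labelled knockdown lie above the controls for 5 of them.

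KRT5, the type II chain of the basal pair, had the steadiest controls in MCF10A and MCF10CA1h. In MCF10A it was 101392, 103397 and 98452 in controls a, b and c and 191141, 181908 and 192669 in the libraries labelled knockdown. In MCF10AT1 the controls were 48735, 47281 and 36863 and the libraries labelled knockdown 5540.2, 2771 and 824. In MCF10CA1h they were 213314, 214804 and 215309 against 283762, 284806 and 258418. The groups did not overlap in any line, with the labelled arm above its control in MCF10A and MCF10CA1h and below it in MCF10AT1, where its 3 libraries were spread more widely (coefficient of variation 77.8%) than those of any other group for KRT5. The log2 difference was 0.90 ± 0.18 in MCF10A (adjusted p = 0.0455, limma), -4.24 ± 0.61 in MCF10AT1 (adjusted p = 0.00289) and 0.36 ± 0.09 in MCF10CA1h (adjusted p = 0.0331). Neither rise was firm: in MCF10A the call was lost without any 1 of the 6 libraries (adjusted p 0.0554 to 0.186), and in MCF10CA1h without control a or c or labelled knockdown a or b (0.0962 to 0.138). In the joint fit of all 18 libraries the adjusted p was 0.332 and 0.932, and in MCF10CA1h it was 0.0847 without an intensity trend and 0.083 without a filter, while the MCF10A difference stayed between 0.88 and 0.93 without 1 library.

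KRT14, the type I partner of KRT5, was far less abundant, and in MCF10A its labelled arm lay below the controls where that of KRT5 lay above. Its values in MCF10A were 2278, 2322 and 2699 in controls and 361, 1275 and 797 in the libraries labelled knockdown. In MCF10AT1 they were 99.2, 77.1 and 43 against 26.6, 6.58 and 11.2. In MCF10CA1h they were 836, 1027 and 1247 against 4220.2, 5739 and 3908. The groups were apart in all 3 lines, the labelled arm being lower in MCF10A and MCF10AT1 and higher in MCF10CA1h. The log2 difference of -1.76 ± 0.40 in MCF10A missed the threshold (adjusted p = 0.0608, limma) and passed it with the replicate block (adjusted p = 0.0129), in the joint fit (0.0393), without control a (0.0454) or without labelled knockdown b (0.0465). In MCF10AT1 it was -2.36 ± 0.64 (adjusted p = 0.0464) at a level that is low throughout, and that call was lost when any of 5 of the 6 libraries was left out (control a, b or c, or labelled knockdown b or c, adjusted p 0.0501 to 0.185). In MCF10CA1h the difference was 2.15 ± 0.17 (adjusted p = 7.0e-05).

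KRT15, the other basal type I chain, showed the deepest fall of the 7 in MCF10AT1 and a wide spread between replicates in every group. In MCF10AT1 its values were 91624, 75219.9 and 27151 in controls and 411, 183 and 112 in the libraries labelled knockdown. The groups lay far apart, with a log2 difference of -8.13 ± 0.58 (adjusted p = 1.0e-04, limma), which left 0.357% of the control level. In MCF10A the values were 45958, 36855 and 13409 against 75429, 63875 and 39532, and in MCF10CA1h 10981, 5305 and 17334 against 5467, 5005 and 11339.9. The groups overlapped in both lines, with differences of 1.02 ± 0.45 (adjusted p = 0.279) and -0.57 ± 0.40 (adjusted p = 0.393). The libraries with the letter c were the lowest for KRT15 in all 4 groups of MCF10A and MCF10AT1 and the highest in both groups of MCF10CA1h. In MCF10A the adjusted p with the replicate block was 0.0179.

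KRT17, the stress chain that basal breast cells also make, fell in MCF10AT1 from 26443, 22916 and 18003 in controls to 989, 978 and 1028 in the libraries labelled knockdown. That is 4.5% of the control level, with a log2 difference of -4.47 ± 0.25 (adjusted p = 3.8e-05, limma) and a coefficient of variation of 2.61% between the libraries of the labelled arm. In MCF10CA1h it rose from 51079.7, 39492 and 45056 to 76109, 75894 and 69470.2, a difference of 0.71 ± 0.11 (adjusted p = 0.00256, but 0.219 in the joint fit). In MCF10A the values of 67200.3, 33606 and 48881 in controls overlapped those of 81653, 45772 and 68051 in the libraries labelled knockdown (0.40 ± 0.31, adjusted p = 0.547).

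KRT6A, a type II chain of stressed epithelium, was the most abundant member in MCF10A controls, at 129757, 221176 and 260305. In the MCF10A libraries labelled knockdown it was 84829, 136286 and 110689, overlapping only through the highest of these and control a. The log2 difference of -0.85 ± 0.31 had an adjusted p of 0.2 (limma), 0.0287 with the replicate block and 0.05, just under the threshold, without control a. In MCF10AT1 KRT6A fell from 29095, 34067 and 33988 to 137, 314 and 394 (-6.97 ± 0.40, adjusted p = 3.8e-05). In MCF10CA1h it rose from 48346, 57605 and 51301 to 134393, 164868 and 122471 (1.42 ± 0.12, adjusted p = 1.1e-04), and the groups were well apart in both lines.

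KRT6B, its close paralog, followed KRT6A in MCF10AT1 and MCF10CA1h. In MCF10AT1 it fell from 3123, 4389.6 and 2604 in controls to 38, 40.6 and 19 in the libraries labelled knockdown (log2 difference -6.69 ± 0.39, adjusted p = 4.2e-05, limma). In MCF10CA1h it rose from 27311, 20919 and 18746 to 37628, 36622 and 29674 (0.64 ± 0.14, adjusted p = 0.0168), a call lost without control c or without labelled knockdown a or b (adjusted p 0.052 to 0.0659), without an intensity trend (0.0909) and in the joint fit (0.447). In MCF10A its 9975, 14777 and 10689 in controls and 9816, 17097 and 10286 in the labelled arm covered the same range (0.04 ± 0.25, 95% interval -0.53 to 0.62, adjusted p = 0.955).

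KRT16, the type I partner of the KRT6 chains, did not rise with them in MCF10CA1h. It was 2195, 2114 and 3361 in the MCF10CA1h controls and 1392, 1884 and 1948 in the libraries labelled knockdown. The groups were apart, with the labelled arm lower, but the log2 difference of -0.54 ± 0.19 missed the threshold (adjusted p = 0.0903, limma). In MCF10AT1 it fell from 2070.5, 4106 and 2178 to 225, 332 and 728 (-2.80 ± 0.47, adjusted p = 0.00612). In MCF10A controls of 6565, 3592 and 4498 overlapped the 3735, 3794 and 4229 of the labelled arm (-0.27 ± 0.22, adjusted p = 0.563). Counted without a test, the arms did not overlap for 2 members in MCF10A, 7 in MCF10AT1 and 6 in MCF10CA1h, beside 23.9%, 32.8% and 32.7% of all genes tested.

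**Figure D2:**
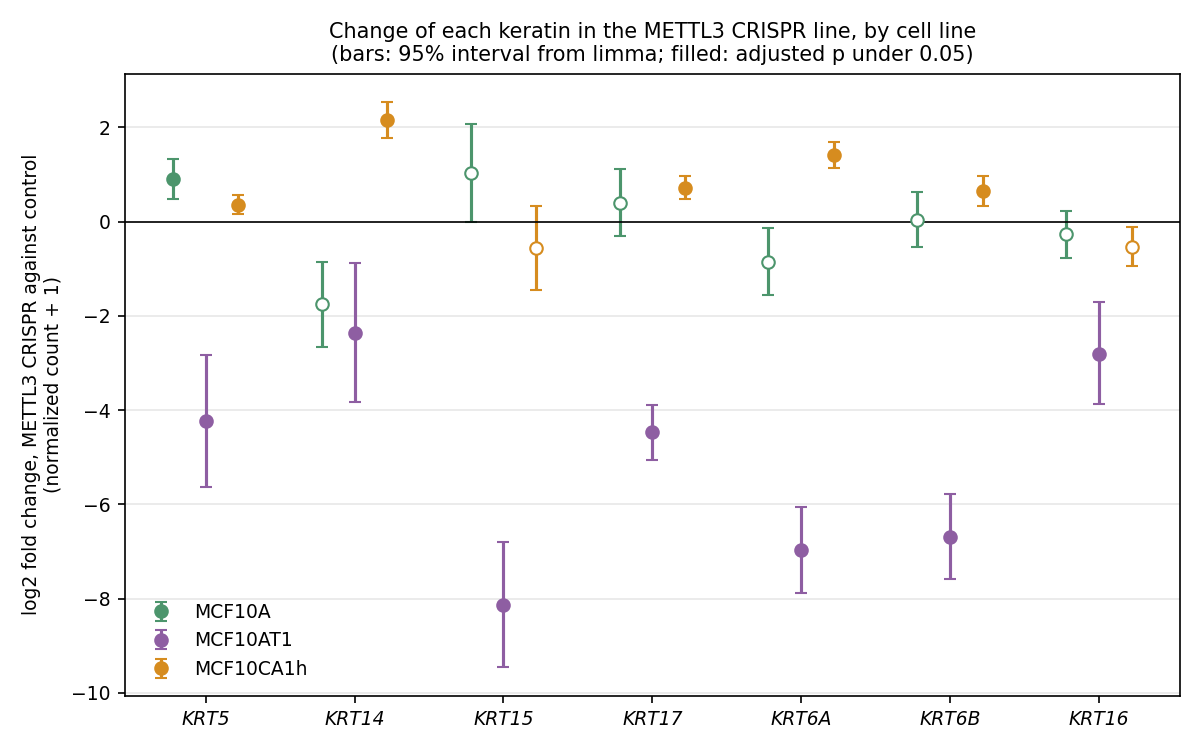
Log2 fold change of each keratin in the libraries labelled knockdown against the controls of the same line, with 95% intervals from limma and filled points at an adjusted p under 0.05. The MCF10AT1 points lie between -2.36 and -8.13, while those of MCF10A and MCF10CA1h lie on both sides of 0.

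The same-letter libraries varied together in MCF10A and MCF10AT1, so the fit with the replicate letter as a block bears on those lines. With the replicate block, the members called in MCF10A went from 1 to 4 (KRT5 higher, KRT14 lower, KRT15 higher and KRT6A lower), and the share of all genes called went from 2.65% to 7.60%. In MCF10AT1 all 7 were called with the block as without it, with the share of all genes going from 13.0% to 24.5%.

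Whether the difference between the arms itself varied between lines was tested as an interaction in 1 fit of the 18 libraries. Between MCF10AT1 and MCF10A it differed for 6 members, all but KRT14, beside 21.6% of all genes tested. The gap was widest for KRT15 (-9.15 ± 0.83, adjusted p = 7.1e-07, limma), and for KRT14 it was -0.60 ± 0.64 (95% interval -1.96 to 0.75, adjusted p = 0.548). Between MCF10CA1h and MCF10AT1 it differed for all 7, beside 18.2% of all genes, from 2.26 ± 0.51 for KRT16 to 8.38 ± 0.46 for KRT6A. Between MCF10CA1h and MCF10A it differed for 2, KRT14 (3.91 ± 0.64, adjusted p = 0.00171) and KRT6A (2.26 ± 0.46, adjusted p = 0.00774), beside 5.34% of all genes. The 3 differences share groups, so their counts are not independent.

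The control cells were compared next, since the lines stand for stages of 1 progression model. Against MCF10A, the MCF10AT1 controls were lower in 5 members (KRT5, KRT14, KRT17, KRT6A and KRT6B), beside 14.7% of all genes lower and 13.3% higher at an adjusted limma p under 0.05. No member was higher at an adjusted or an unadjusted limma p under 0.05. At the unadjusted threshold 6960 of 15652 genes differed in either direction. KRT14 differed most, at 73.1 ± 28.3 (SD, n = 3) in MCF10AT1 and 2433 ± 232 in MCF10A (log2 difference -5.11 ± 0.30, adjusted p = 4.8e-05), followed by KRT6A (-2.60 ± 0.26, adjusted p = 5.1e-04) and KRT6B (-1.82 ± 0.25). KRT5 and KRT17 were lower by a log2 difference of -1.20 ± 0.18 and -1.11 ± 0.27, and the KRT17 call was lost without MCF10A control c (adjusted p = 0.0633). KRT15, at 1.01 ± 0.61 with overlapping controls, passed without MCF10AT1 control c (adjusted p = 0.0424), and KRT16 (-0.84 ± 0.33) without MCF10AT1 control b (0.0257).

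The MCF10CA1h controls were higher than those of MCF10A in KRT5 (1.09 ± 0.18, adjusted p = 0.00217, limma) and KRT6B (0.92 ± 0.25, adjusted p = 0.0183), beside 19.0% of all genes higher. They were lower in KRT14 (-1.24 ± 0.30, adjusted p = 0.0113) and KRT6A (-1.90 ± 0.26, adjusted p = 8.6e-04), beside 18.8% of all genes lower. So both chains of the basal pair differed between these lines, in opposite directions. The KRT6B call was lost without MCF10A control a or c or MCF10CA1h control a (adjusted p 0.0543 to 0.0814), and the KRT14 call without MCF10CA1h control a (0.0531). KRT16 (-0.92 ± 0.33, adjusted p = 0.0505) lay just outside the threshold and passed it in the joint fit (0.0486) and with equal sums (0.0324), and KRT15 (-1.50 ± 0.61, adjusted p = 0.0784) passed in the joint fit (0.0481) and without MCF10A control c (0.0386). Against MCF10AT1, the MCF10CA1h controls were higher in 4 members, KRT5 (2.29 ± 0.18), KRT14 (3.87 ± 0.30), KRT17 (1.02 ± 0.27) and KRT6B (2.74 ± 0.25), beside 11.0% of all genes, and lower in KRT15 (-2.51 ± 0.61, adjusted p = 0.018), beside 10.8%. The KRT17 call was lost without any 1 of the MCF10CA1h controls (adjusted p 0.0615 to 0.101), and the KRT15 call without MCF10AT1 control a or MCF10CA1h control a or b (0.0558 to 0.0745). The 3 comparisons share control libraries.

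Ordered over the 6 groups, each of the 7 was lowest in the MCF10AT1 libraries labelled knockdown, apart from the next group. KRT5 was the only member whose 6 groups followed each other with no overlap between neighbours, MCF10AT1 labelled knockdown, MCF10AT1 control, MCF10A control, MCF10A labelled knockdown, MCF10CA1h control and MCF10CA1h labelled knockdown. KRT14 and KRT6B were also highest in MCF10CA1h labelled knockdown, apart from the next group (4623 ± 979.6 and 34641 ± 4331). KRT17 was highest there by mean (73825 ± 3773) but overlapped the next group, MCF10A labelled knockdown. KRT6A and KRT16 were highest by mean in MCF10A controls (203746 ± 66997 and 4885 ± 1524), each overlapping the next group. KRT15 was highest by mean in MCF10AT1 controls (64665 ± 33507), and its 5 upper groups each overlapped their neighbour.

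To compare levels between genes, normalized counts were divided by the length of the canonical transcript. Per kb, KRT6A led in MCF10A controls (88278 ± 29028, SD, n = 3), ahead of KRT5 (45166 ± 1111) and KRT17 (32891 ± 11088). In the MCF10A libraries labelled knockdown KRT5 led (84259.6 ± 2602), ahead of KRT6A (47921 ± 11148), and the per-kb ratio of KRT6A to KRT5 was 1.24, 2.07 and 2.56 in controls and 0.43, 0.726 and 0.557 in the labelled arm. In MCF10CA1h the same ratio was 0.22, 0.26 and 0.231 in controls and 0.459, 0.561 and 0.46 in the labelled arm, so it moved in opposite directions in these lines without overlap within either. The basal pair was unbalanced throughout. KRT5 exceeded KRT14 per kb by 26.7 to 32.6 times in MCF10A controls, by 104 to 387 times in the MCF10A labelled arm, by 126 to 187 times in MCF10CA1h controls and by 36.3 to 49.2 times in the MCF10CA1h labelled arm. In MCF10AT1 controls the lead by mean passed to KRT15 (37772 ± 19572), which overlapped KRT5 (19791 ± 2894).

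As a share of the summed per-kb level of all keratins, the 7 members held 81.4% ± 4.33 (SD, n = 3) in MCF10A controls and 88.9% ± 0.909 in the labelled arm. They held 42.1% ± 9.92 in MCF10AT1 controls and 2.87% ± 0.735 in the labelled arm, and 51.3% ± 2.44 and 54.3% ± 3.28 in MCF10CA1h. The arms were apart in MCF10A and MCF10AT1 and overlapped in MCF10CA1h. In the MCF10AT1 libraries labelled knockdown the remainder was almost all KRT7, KRT18, KRT8 and KRT81, keratins of simple epithelium and, for KRT81, of hair. KRT7 held 46% ± 5.33, KRT81 23.1% ± 7.83, KRT18 17.9% ± 1.37 and KRT8 9.3% ± 1.63. None of these 4, named after their values were seen, passed the test in MCF10AT1, with log2 differences of -0.04 ± 0.56 for KRT7, -0.51 ± 0.45 for KRT18, -0.45 ± 0.37 for KRT8 and -1.22 ± 0.54 for KRT81 (adjusted p 0.189 to 0.971, limma). The summed level of all keratins per kb was 127146 to 323983 in MCF10AT1 controls and 57215 to 113242 in the labelled arm.

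**Figure D3:**
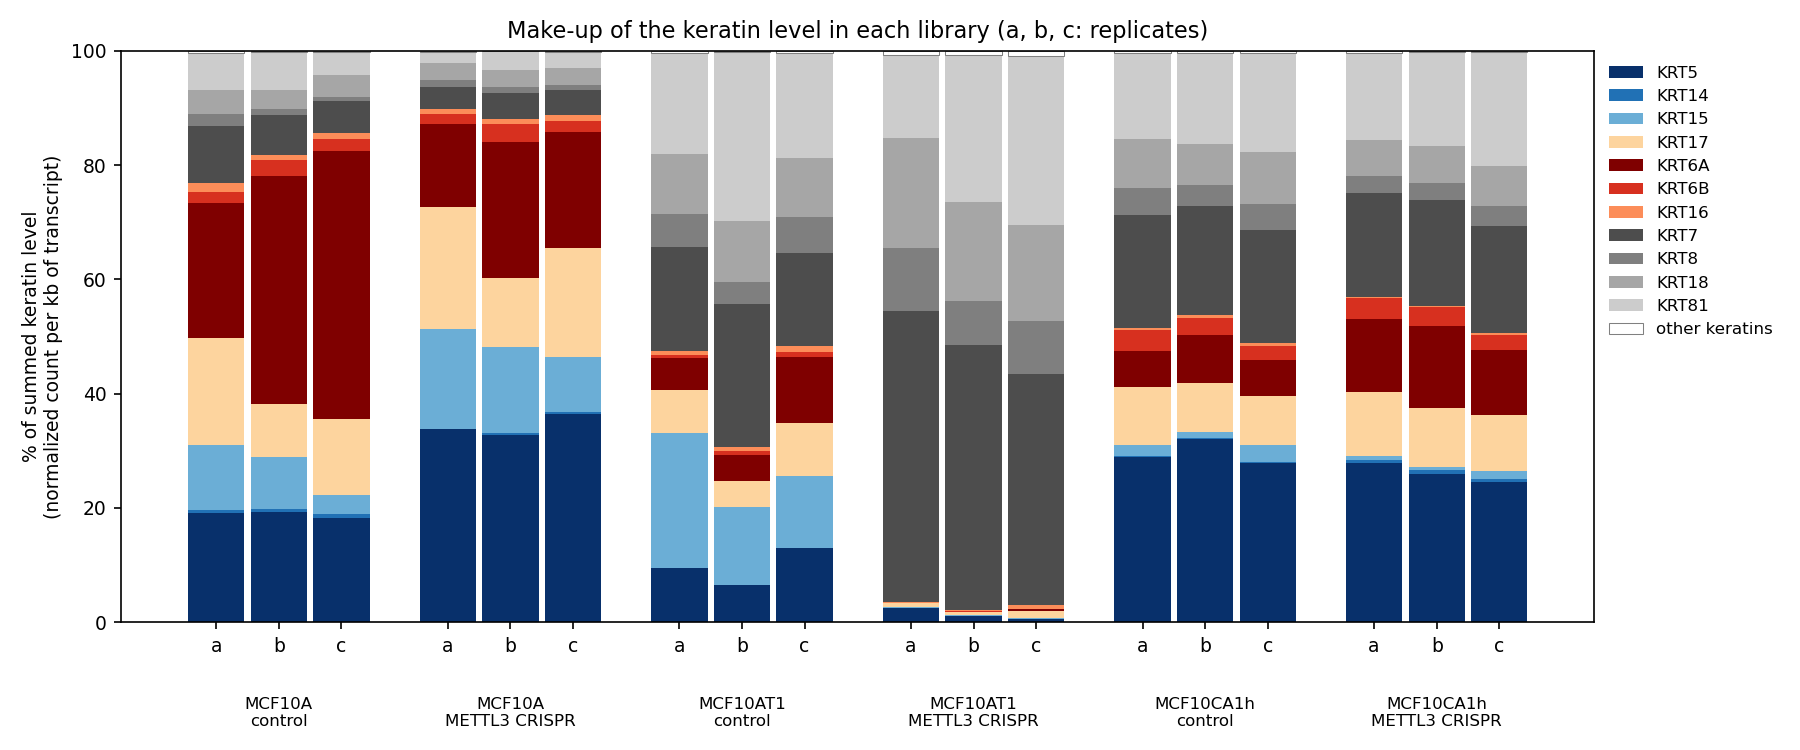
Share of each keratin in the summed keratin level per kb of transcript, in percent, for every library (a, b and c), with basal members in blue, stress members in orange to red, and the most abundant other keratins in grey. The coloured members fill most of the MCF10A columns and 2.07% to 3.52% of the columns of the MCF10AT1 libraries labelled knockdown.

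Among the 38 other keratin genes, 10 to 14 per line were measured well enough to test. Of all genes tested, 2.65% were called in either direction in MCF10A, 13.0% in MCF10AT1 and 12.8% in MCF10CA1h. At an unadjusted limma p under 0.05 they were 2839 of 15416, 4425 of 16050 and 4230 of 15127 in the same order. These stand beside the unadjusted counts of this list and of the lists below. In MCF10A 1 of 10 tested was lower, KRT34 (49 ± 5.3 in controls, 3.43 ± 2.63 in the labelled arm, adjusted p = 0.0172, limma, but 0.08 without control b and 0.0713 without labelled knockdown c), and none was higher, with 7 lower and none higher at an unadjusted p under 0.05. In MCF10AT1 2 of 11 were lower, KRT80 (-1.59 ± 0.40, adjusted p = 0.0366) and KRT6C, and 1 was higher, KRT23 (1.57 ± 0.34, adjusted p = 0.0177). KRT80 lost its call without any 1 library but labelled knockdown b (adjusted p 0.0657 to 0.124), and KRT23 without control a or labelled knockdown a or b (0.0625 to 0.0996). KRT6C, the third KRT6 paralog, was at 29 ± 7.31 in those controls and listed at 1.39, 0 and 0 in the labelled arm. In MCF10CA1h 4 of 14 were higher and 2 lower, KRT34 rising from 14 ± 0.97 to 165 ± 27.2 (3.46 ± 0.26, adjusted p = 5.2e-05), KRT6C rising by 1.23 ± 0.22 and KRT13, a chain of mucosal epithelium, falling by 2.45 ± 0.67 (adjusted p = 0.0372, but 0.0791 to 0.124 without control b or c or labelled knockdown a or b). The median log2 difference of those tested was -0.76, -1.16 and 0.24 in the 3 lines, beside 0.00, 0.02 and -0.02 over all genes.

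The members share sequence with close relatives, which limits how reads were split. Of the 31-base words of the KRT6A transcript 52.7% also occur in other KRT-named genes, mainly KRT6C (45.8%) and KRT6B (40.5%), and for KRT6B the share is 57.8%. For KRT14 it is 42.7% (KRT16P6 19.2%, KRT16 18.2%), for KRT16 39.1% and for KRT17 34.9% (KRT17P1 20.6%), in part with pseudogenes, against 8.2% for KRT5 and 5.4% for KRT15. The separate levels of KRT6A and KRT6B, and of KRT14, KRT16 and KRT17, are less certain for it, by an amount that was not measured. Summed over KRT6A, KRT6B and KRT6C, the normalized count was 32239.8, 38484 and 36628 in MCF10AT1 controls and 176, 355 and 413 in the labelled arm. In MCF10CA1h the sum was 75784, 78657 and 70159 against 172342, 201858 and 152355, so the arms were apart in both lines as they were for KRT6A. In MCF10A the sums of 139871, 236202 and 271252 and of 94762, 153545 and 121065 overlapped.

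Genes whose proteins anchor or bind keratin filaments were read from a list of 14. In MCF10AT1 6 of 13 tested were lower and none higher (median log2 difference -1.21, 0.02 over all genes), among them the linker EPPK1 (417 ± 148 in controls, 3.8 ± 1.84 in the labelled arm, adjusted p = 1.8e-04, limma), the desmosomal plaque protein DSP (6452 ± 4839.7 and 419 ± 126, adjusted p = 0.00235) and SFN, which binds KRT17 (-3.08 ± 0.50, adjusted p = 0.00516). None of the 13 was higher at an unadjusted p under 0.05 either. In MCF10CA1h 2 of 14 were higher, PLEC, which links keratin filaments to hemidesmosomes (0.83 ± 0.13, adjusted p = 0.00345), and SFN (0.69 ± 0.11, adjusted p = 0.00318), and 2 were lower, the cornified envelope linkers PPL (-1.13 ± 0.17, adjusted p = 0.00215) and EVPL (-0.37 ± 0.11, adjusted p = 0.0429). The EVPL call was lost without any 1 of the 6 libraries (adjusted p 0.0564 to 0.16). PLEC, SFN and PPL were each called in 14 of 15 alternatives, with a highest adjusted p of 0.271, 0.526 and 0.326. In MCF10A 2 of 14 were higher, EPPK1 (1.81 ± 0.20, adjusted p = 0.00803) and DST (0.94 ± 0.18, adjusted p = 0.0373), and none was lower, with 2 lower at an unadjusted p under 0.05. The DST call was lost without any 1 library but control a (adjusted p 0.0641 to 0.148).

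A list of 20 transcription factors known to act on keratin or epithelial genes gave 6 of 18 tested lower and none higher in MCF10AT1, and 7 lower and none higher at an unadjusted p under 0.05 (limma). They include the epithelial factors GRHL2 (644 ± 294 in controls, 11.5 ± 18.3 in the labelled arm, adjusted p = 0.00396) and OVOL1 (129 ± 71.1 and 0.607 ± 0.53, adjusted p = 6.6e-04), and the immediate early factor EGR1 (-2.43 ± 0.48, adjusted p = 0.0121, but 0.0543 to 0.0634 without control a or labelled knockdown a or b). TP63, the master regulator of basal epithelium, named after its value was seen, was not called there (1.05 ± 0.64, adjusted p = 0.336). GRHL2 and OVOL1 were also under 10 in every MCF10CA1h library of both arms, where KRT5 averaged 214476 in controls and 275662 in the labelled arm. A link between these factors and the keratins was not tested. In MCF10CA1h 1 of 17 was lower, ZNF750, a factor of terminal differentiation (-2.59 ± 0.51, adjusted p = 0.00925), with 6 lower and 2 higher at an unadjusted p under 0.05. In MCF10A none of 19 was called, with 5 higher and 1 lower at an unadjusted p under 0.05.

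Markers of cell types were read beside the keratins. Of the basal or myoepithelial markers, 5 of 11 tested were lower in MCF10AT1, from CDH3 (-1.81 ± 0.29, adjusted p = 0.00444, limma) to the basal desmosomal cadherin DSG3 (-8.05 ± 0.55, adjusted p = 8.1e-05), with the hemidesmosome collagen COL17A1 between (-7.92 ± 0.37, adjusted p = 2.3e-05). None was called higher, with 7 lower and 1 higher at an unadjusted p under 0.05, the latter being the integrin ITGB4 (adjusted p = 0.104), named after its value was seen. In MCF10CA1h 5 of 12 were higher, among them the laminin chains LAMA3 (1.71 ± 0.13) and LAMB3 (1.43 ± 0.15), COL17A1 (0.82 ± 0.10) and ITGB4 (0.58 ± 0.12), and in MCF10A none of 12 was, with 5 lower at an unadjusted p under 0.05. TP63 is in both this list and that of the factors. The summed level of the 12 basal markers was 85806 to 118218 in MCF10AT1 controls and 59173 to 186419.9 in the labelled arm, so the sum did not separate the arms there. It was 353587 to 854010.2 and 231478 to 284549 in MCF10A and 91745 to 103157 and 178417 to 226866 in MCF10CA1h, apart in both, lower in the labelled arm of MCF10A and higher in that of MCF10CA1h.

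Fibroblast or mesenchymal markers moved the other way in MCF10AT1. Of 10 tested 6 were higher and none lower at either threshold, with a median log2 difference of 5.74, and the sum over the 14 genes was 4128 to 5411 in controls and 119668 to 208522 in the labelled arm. FN1, the matrix protein fibronectin, was 72.5 ± 8.59 in controls and 85441 ± 42781 in the labelled arm (adjusted p = 1.9e-05, limma), THY1 1.53 ± 0.574 and 2040.0 ± 734, and COL6A2 was listed at 0 in all 3 controls and averaged 1116 ± 166 in the labelled arm. Of the list, COL1A2, LUM and PRRX1 were under 10 in every library of the labelled arm. Of 12 epithelial markers 6 were lower there, among them ESRP1, CLDN4 and GRHL2, with KRT8 and KRT18 in the same list not called. At an unadjusted p under 0.05 there were 8 lower and 1 higher, again ITGB4. Of the epithelial markers of MCF10CA1h, 2 of 10 were higher, ITGB4 and KRT7 (0.46 ± 0.10, adjusted p = 0.0148), and 1 lower, CLDN4 (-1.16 ± 0.29, adjusted p = 0.0261), the KRT7 call being lost without control a or labelled knockdown b (0.0565 to 0.0577) and the CLDN4 call without control a or c or labelled knockdown a or b (0.0544 to 0.0835). None of 11 epithelial and of 6 mesenchymal markers tested was called in MCF10A, with 1 and 1 higher and 4 and 3 lower at an unadjusted p under 0.05. In MCF10CA1h the mesenchymal sum was 28298 to 33391 in controls and 41540.1 to 52524 in the labelled arm, with FN1 rising by 1.92 ± 0.16 while the 5 keratins rose, DCN rising by 0.87 ± 0.15 and COL3A1 falling by 1.22 ± 0.32 (adjusted p = 0.0343, but 0.0819 to 0.142 without control a or c or labelled knockdown b or c), and in MCF10A it was 10084 to 17058 and 6775 to 12324. The part of these marker changes in the keratin values was not tested.

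Some markers of other cell types were near 0. PTPRC and CD3E (leukocytes) were under 10 in every library of all 6 groups, as were the endothelial genes CDH5 and VWF, and the luminal genes ELF5 and KIT. Of the other luminal markers FOXA1 was lower in MCF10AT1 (240.3 ± 71.7 and 57.9 ± 20.8, adjusted p = 0.0195, limma, but 0.0545 to 0.0919 without control a or c or labelled knockdown a). In MCF10CA1h CD68, from the leukocyte list, was higher (1.05 ± 0.23, adjusted p = 0.0144, but 0.057 without control a and 0.0527 without labelled knockdown b), and PECAM1, from the endothelial list, was lower (97.4 ± 23.5 and 43.4 ± 16.9, adjusted p = 0.0389, but 0.0837 to 0.132 without control a or c or labelled knockdown a or b). Over all libraries the 3 leukocyte genes measured summed to between 146 and 2007 and the 4 endothelial genes to between 35.1 and 864. The 8 luminal genes, which include KRT8 and KRT18, summed to between 14098 and 77100.2, so the luminal list as a whole was not near 0. Over the 12 epithelial markers of these cells, labelled breast epithelial, the sum was 132717 or more in every library, although KRT19 was under 10 throughout MCF10A and GRHL2 throughout MCF10CA1h. In the MCF10AT1 libraries labelled knockdown that sum did not reflect every marker, since ESRP1 averaged 9.46 ± 13.9, GRHL2 11.5 ± 18.3 and CLDN4 57.1 ± 38, and the adhesion genes CDH1 and EPCAM, named after their values were seen, were lower by a log2 difference of -6.79 ± 0.68 (adjusted p = 4.7e-04, limma) and -5.16 ± 0.29 (adjusted p = 3.8e-05).

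**Figure D4:**
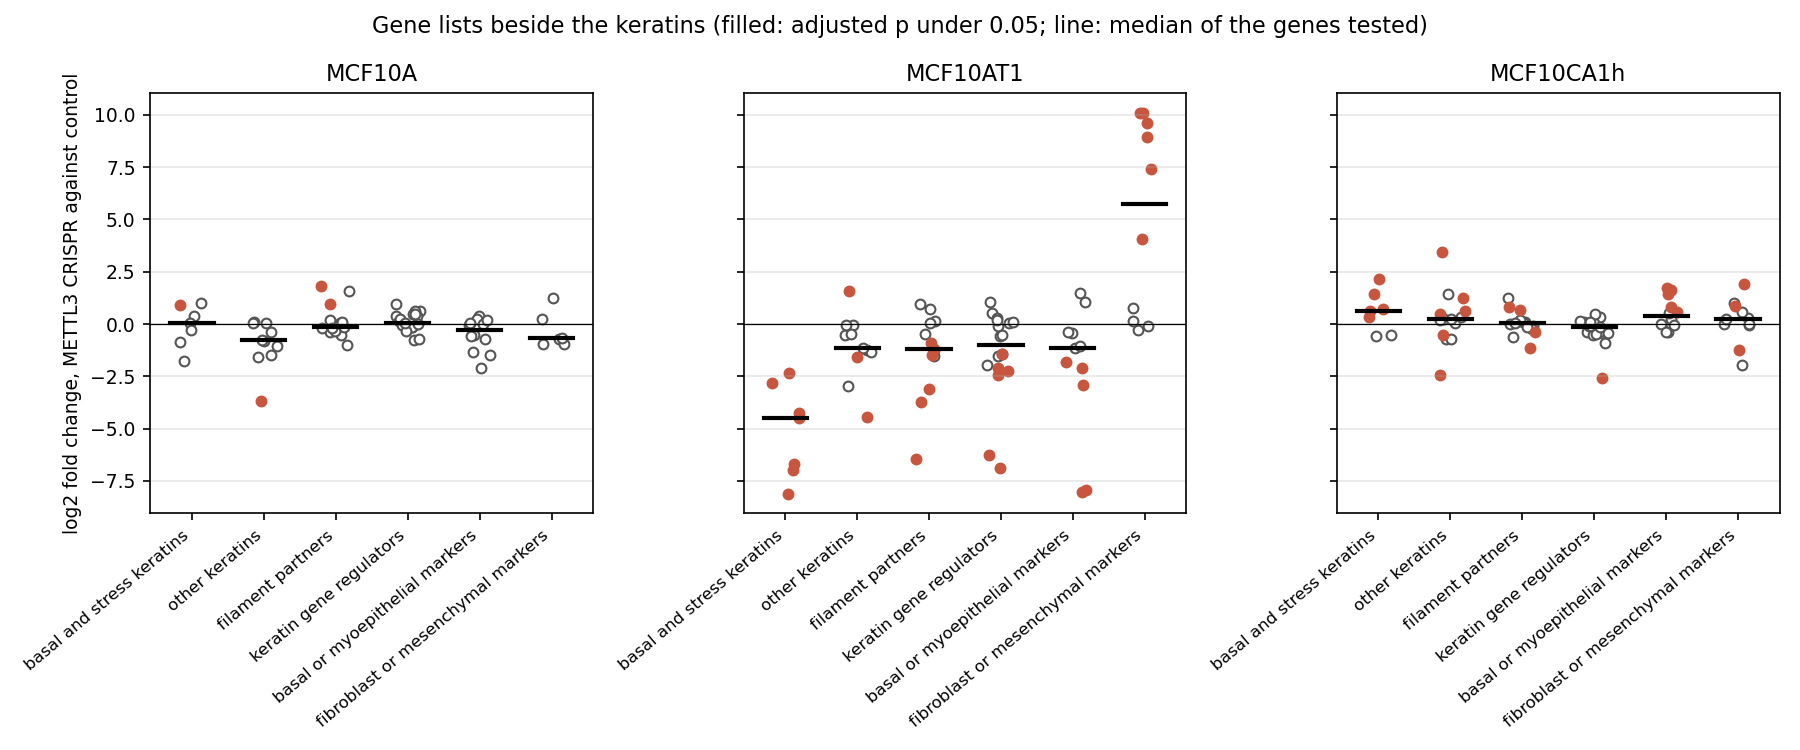
Log2 fold change in the libraries labelled knockdown for the 7 keratins and for the genes of 5 lists, by line, with 1 point per gene tested, the median as a line and filled points at an adjusted p under 0.05. In MCF10AT1 the keratins (median -4.47) lie lowest of the 6 lists by median, and the mesenchymal markers (median 5.74) highest.

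Across the 18 libraries the members followed each other, as a description over libraries that share lines and clones. Each member was lowest in the MCF10AT1 libraries labelled knockdown, which weighs on every r, and r without that group was not computed. Within MCF10A and within MCF10CA1h, members differed in the direction of their change. On log2 values Pearson's r between pairs of members ran from 0.50 (KRT14 and KRT15) to 0.98 (KRT5 and KRT6B), and KRT17 was at 0.97 with both KRT6A and KRT6B. The genes most like each member by r over the 18 libraries, among the 12460 genes with a mean of at least 50, were as follows. For KRT5 they were ACOT11 (0.981), SFN (0.972) and MICALL1 (0.965). For KRT14 they were TLNRD1 (0.953), VPS37B (0.952) and PTHLH (0.947), and for KRT15 they included TNNI2 (0.979) and SYT8 (0.958). KRT6A and KRT17 had the same leading pair, PTAFR (0.992 and 0.978) and C1orf116 (0.986 and 0.977), joined by FOXQ1 (0.985) for KRT6A and KDF1 (0.977) for KRT17. For KRT6B they were PPP1R14C (0.980), ANXA8L1 (0.979) and ACOT11 (0.978), and for KRT16 PCDH1 (0.956), PNLIPRP3 (0.940) and MIR205HG (0.939). As an example of such a pattern, PTAFR averaged 1061 in MCF10A controls and 792 in the labelled arm, 322 and 2.83 in MCF10AT1, and 471 and 853 in MCF10CA1h, so it too was lowest in the MCF10AT1 libraries labelled knockdown.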

How the data were processed

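RNA of 18 libraries in 6 groups of 3 was sequenced from both ends. The authors depleted ribosomal RNA by a stranded kit, although the heading of that method and the sample labels name polyA RNA, which was not settled here. By the study's methods and the submitters' processing notes, reads were pseudo-aligned to the hg38 transcriptome with kallisto 0.46.1, summed to genes with tximport and normalized with DESeq2 1.26.0 in R 4.1.1. The deposited values are these normalized counts, a signal on a common scale (size factors computed here lay between 1.013 and 1.018), and 24646 listed genes without values in all libraries were not used. Whole reads were not recovered: at most 45.015% of low values lay at multiples of the most frequent low value, within 0.05 of a step.

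Groups came from the genotype and line labels and replicate letters from the titles. The log2 of the value plus a pseudocount of 1 was fitted with limma 3.58.1 (lmFit, eBayes with an intensity trend) in R 4.3.3, per line, over the 9 control libraries, and over all 18 libraries for the differences between lines, two-sided, with genes of a mean of at least 10. Python 3.11.15 (NumPy 2.4.6, pandas 2.3.3, SciPy 1.17.1, matplotlib 3.10.9) served for tables and plots. Gene positions and lengths are from GENCODE on hg38. The per-line fits were also run on simulated libraries drawn independently, with larger changes than several called here. That run does not bear on the smaller changes or on libraries that vary together.

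Deviations of same-letter libraries from their group means, over 15897 genes, correlated at 0.221, 0.200 and 0.116 in MCF10A and 0.110, 0.289 and 0.477 in MCF10AT1 for a, b and c, but at -0.011, 0.017 and 0.046 in MCF10CA1h. The letters were therefore taken to pair the libraries in the first 2 lines, from the data and not from the labels, and a fit with the letter as a replicate block is given where it changes a call. In MCF10A 6 of 6 libraries and in MCF10AT1 5 of 6 correlated best with their own letter in the other arm. Same-letter controls of different lines reached 0.284 as well, so whether the letters mark pairs was not settled.

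The members, lists and alternatives were chosen with earlier results of these data known. Named are the members, METTL3, per list and line every called gene, or the 3 with the largest change where more than 5 were called, and the 3 genes most like each member, except for items not reported here. Alternatives tried were leaving out each library, the replicate block, other scalings (equal sums, median-of-ratios factors), a pseudocount of 0.5 or 5, dropping the filter or raising its mean to 50, dropping the trend, fitting the lines jointly, and coding length in place of transcript length.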

Additional observations from a re-analysis of the deposited data

Results flagged for a closer look

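The difference between the labelled arm and its control varied between lines for 15 pairs of a keratin and a line comparison. This was by the interaction test in limma over the 18 libraries, given as differences of log2 differences. Between MCF10AT1 and MCF10A the gap was -5.14 for KRT5, -9.15 for KRT15, -4.87 for KRT17, -6.12 for KRT6A, -6.73 for KRT6B and -2.52 for KRT16. Between MCF10CA1h and MCF10A it was 3.91 for KRT14 and 2.26 for KRT6A. Between MCF10CA1h and MCF10AT1 it was 4.60 for KRT5, 4.52 for KRT14, 7.56 for KRT15, 5.19 for KRT17, 8.38 for KRT6A, 7.34 for KRT6B and 2.26 for KRT16. All 15 had adjusted p-values between 2.9e-09 and 0.00774, and all 15 kept their direction and their call under each of the 20 alternatives run for them. Each arm is 1 clone, so a difference between lines cannot be told apart from a difference between clones.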

How the results depend on the processing

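The count of the 7 keratins called, and the direction of each member, were recomputed under each alternative. In MCF10AT1 (7 called) and in the 3 differences between lines (6, 2 and 7) the count stayed within 1.5 times. In MCF10A the single call became 0 with a pseudocount of 5, 2 without a filter and 4 with the replicate block, and 0 to 2 without 1 library. The gene called changed as well. KRT5 lost its call in the joint fit and when any 1 library was left out. Instead KRT14 was called, as lower, in the joint fit and without labelled knockdown b. Without control a, KRT14 and KRT6A were called, each as lower. In MCF10CA1h the 5 calls became 3 without an intensity trend, 2 in the joint fit of all 18 libraries, and 3 to 5 without 1 library. Among controls the counts without 1 library were 2 to 4 for MCF10CA1h against MCF10A (main 4) and 3 to 5 for MCF10CA1h against MCF10AT1 (main 5). The cause was not tested. KRT16 between the controls of MCF10CA1h and MCF10AT1 (-0.08) turned to 0.03 with equal sums and was -0.30 to 0.23 over all alternatives. Leaving out 1 library gave between -0.21 and 0.22 for KRT6B in MCF10A (0.04, and -0.07 or -0.02 in other cases), between -0.35 and 0.15 for KRT17 between the controls of MCF10CA1h and MCF10A (-0.09, and 0.00 in 1 case), and up to 0.23 for that KRT16 difference (0.01 and 0.04 in other cases). None of these 3 was called under any alternative. Over all values recomputed for single members, 980 kept direction and call, 39 lost the call, 21 gained it and 9 turned direction. For METTL3 and the named genes of the lists, the joint fit kept direction and call in 28 results and lost the call in 18. For ITGB4, COL17A1 and DCN in MCF10CA1h the highest adjusted p (limma) over 15 alternatives was 0.695, 0.138 and 0.508.

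Equal sums put the median over all genes at 0.08 for MCF10A, -0.15 for MCF10AT1, -0.08 for MCF10CA1h and -0.26 for the difference between MCF10AT1 and MCF10A, with no called member changing direction. It moved the split of calls from 1196 higher and 733 lower to 1043 and 1035 in MCF10CA1h and from 1773 and 1664 to 1340 and 2044 for the difference between MCF10AT1 and MCF10A. The replicate block changed calls beyond those in the report as follows: in MCF10CA1h, where same-letter libraries did not vary together and 0 of 6 correlated best with their own letter, KRT5 lost its call (adjusted p = 0.057, limma) and KRT15 (0.0449) and KRT16 (0.0326) gained one, and KRT15 gained one for the difference between MCF10CA1h and MCF10A (-1.59, adjusted p = 0.011). It changed no other call of a member. Same-letter control libraries of different lines correlated between -0.268 and 0.284. With transcript length replaced by coding length, the members' share of the keratin level moved by less than 1 SD in all 6 groups. Depth per gene is unknown, so low values such as KRT14 in MCF10AT1 carry a counting error that could not be stated.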
